A study of Rattus norvegicus with 12 samples.

Results

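MiR-126a, the microRNA (miRNA) most closely tied to endothelial cells, was followed through 12 small RNA libraries of rat aorta. Its members were all rows of the deposited table whose name, without the species prefix rno- and the arm suffix, was miR-126a or miR-126b. Of 641 listed mature miRNAs, 2 met this rule, miR-126a-3p and miR-126a-5p. The aortas came from female spontaneously hypertensive rats (SHR), a selectively bred strain whose blood pressure rises with age, and both groups share strain, sex and tissue. In the control group, 6 samples had received saline. In the other group, 6 samples carried the treatment label EWH, and the title of the series speaks of peptides derived from egg white. The labels give no age, dose or duration, and no label ties a sample to an animal of its own. A p-value therefore weighs a difference against the spread between samples, part or all of which may be technical.

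An miRNA is cut from a hairpin transcript, and either arm of the hairpin (5p or 3p) can be loaded into an Argonaute protein, where it pairs with messenger RNAs through its seed, bases 2 to 8. The miR-126 hairpin lies within Egfl7, a gene for a protein secreted by endothelial cells, and RefSeq's table for the assembly GRCr8 likewise places the hairpin inside Egfl7. MiR-126-3p is known to repress Spred1 and Pik3r2, brakes on vascular endothelial growth factor signalling, and so to support vessel integrity. MiR-126-5p is known to repress Dlk1 in endothelial repair. Platelets also carry miR-126.

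The mature sequences (RefSeq, GRCr8, matched by mature name) are shown because the 2 arms carry unrelated seeds and so count as separate regulators, and because another mature miRNA lies on the opposite strand of the same site. Capitals mark the seed.
rno-miR-126a-3p: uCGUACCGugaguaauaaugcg
rno-miR-126a-5p: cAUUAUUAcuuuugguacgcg
rno-miR-126b: uACCAAAAguaauaaugugcug

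None of these 3 seeds was shared with another mature rat miRNA in RefSeq's table, which holds 693 mature names. MiR-126b is read from the strand opposite to both miR-126a arms, and a run of 17 of its bases is the exact reverse complement of bases in miR-126a-5p, against 3 bases in miR-126a-3p. How strand was handled in counting is not given in the sources used here, so reads of miR-126a-5p and of its antisense partner may not be separable. RefSeq gives the gene symbol Mir126b to the hairpin that holds both miR-126a arms and Mir126a to the one that holds miR-126b, so the arms were matched by mature name and not by gene symbol. The arms, 22 and 21 bases long, formed 18 base pairs with each other in a predicted duplex (RNAduplex), 6 of them G-C, 10 A-U and 2 G-U. Of the first 4 bases of each arm, 3 were paired in miR-126a-3p (2 by G-C) and 4 in miR-126a-5p (1 by G-C).

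The values are rpm, reads per 1000000 reads of a library's total. The totals behind them were 23887799 to 24772944 reads per library, so that 1 read was worth 0.0404 to 0.0419 rpm. MiR-126a-3p rested on 77969 to 300768 reads and miR-126a-5p on 834 to 2137 reads. In the 2 libraries at these extremes, miR-126a-5p held 0.0044% of the listed miRNA reads in control 2 (95% Wilson interval 0.0042% to 0.0048%) and 0.0114% in control 1 (0.0109% to 0.0119%). Such intervals cover counting error only and treat each read as an independent molecule, which does not hold for reads without molecular identifiers. On that assumption counting error was small beside the spread between libraries. How much larger it is without the assumption was not tested. Control 1 was the highest library in both arms and stood apart in several other miRNAs. The comparisons of miR-126a are therefore given with and without it.

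MiR-126a-3p was among the abundant miRNAs of the aorta, 17th of 641 by mean rpm in control and 18th in EWH. The control libraries 1 to 6 read 12218, 3256, 5415, 3601, 5403 and 5236 rpm. The EWH libraries 1 to 6 read 4390, 5781, 5308, 6858, 4726 and 4223 rpm. Control 1 stood 1.78-fold above the next library, EWH 4, while the other 11 libraries lay between 3256 and 6858 rpm with the groups intermixed. The lowest pair of libraries, control 2 and control 4, were controls as well, so the EWH libraries lay inside the range of the controls. This held only with control 1, because EWH 4 and EWH 2 lay above the next control, control 3 at 5415 rpm. The group means were 5855 ± 3259 rpm for control and 5214 ± 993 rpm for EWH (± SD, n = 6 per group). Without control 1 the control mean was 4582 ± 1063 rpm (SD, n = 5), below that of EWH, so that the order of the group means turned on this library.

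MiR-126a-5p, the scarcer arm, ranked 111th in control and 115th in EWH. The control libraries 1 to 6 read 86.8, 34.8, 57.1, 39.4, 50.5 and 52.8 rpm. The EWH libraries 1 to 6 read 37.4, 35.5, 45.1, 55.2, 53.6 and 40.5 rpm. Control 1 was again the highest, 1.52-fold above the next library (control 3), and control 2 again the lowest. The EWH range of 35.5 to 55.2 rpm lay inside that of the controls. Group means were 53.6 ± 18.3 rpm for control and 44.5 ± 8.29 rpm for EWH (± SD, n = 6 per group), and 46.9 ± 9.39 rpm in control without control 1 (SD, n = 5).

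**Figure D1:**
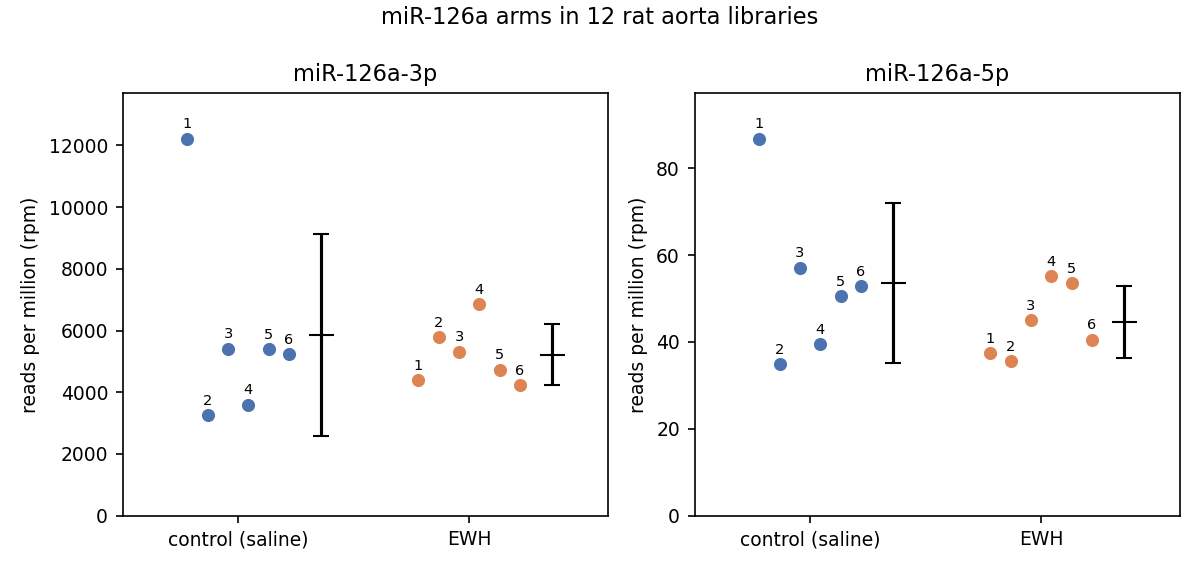
Level in rpm (vertical axis, from 0) of miR-126a-3p (left) and miR-126a-5p (right) in control and EWH; each point is a library with its replicate number, and the bar beside it is the mean ± SD of 6 libraries. Control 1 reads 12218 rpm in the 3p arm and 86.8 rpm in the 5p arm, above the other 11 libraries in both, and the remaining points of the groups overlap.

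In abundance miR-126a-3p lay next to let-7b-5p (5927 ± 989 rpm) and let-7d-5p (5480 ± 986 rpm) in control. In EWH its neighbours were miR-24-3p (5714 ± 535 rpm) and miR-100-5p (5139 ± 475 rpm, ± SD of 6 libraries each). MiR-126a-5p lay between miR-155-5p (54.4 ± 9.64 rpm) and miR-127-3p (51.7 ± 25.9 rpm) in control. In EWH it lay between miR-148a-3p (44.9 ± 10.4 rpm) and miR-27b-5p (44.0 ± 1.99 rpm, ± SD of 6 libraries each). Each of these steps in rank was smaller than the SD of the miR-126a arm in that group. Without control 1 the 3p arm ranked 20th of 641 by its mean over the other controls (4582 ± 1063 rpm), between miR-22-3p (4744 ± 335 rpm) and miR-30d-5p (3687 ± 286 rpm), and the 5p arm 111th (46.9 ± 9.39 rpm).

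The comparison of EWH with control asked whether the aortic level of miR-126a differed with treatment. No difference larger than the spread between libraries was found for either arm. For miR-126a-3p the log2 difference, EWH minus control on the log2(rpm + 1) scale, was −0.04 (SE 0.27, limma, 95% interval −0.63 to 0.55; adjusted p = 0.932). That interval runs from 0.647-fold to 1.46-fold. For miR-126a-5p it was −0.22 (SE 0.21, 95% interval −0.67 to 0.23, or 0.628-fold to 1.18-fold; limma adjusted p = 0.560 with Benjamini-Hochberg adjustment). These data thus leave changes of such sizes in either direction undecided. By unadjusted p, miR-126a-3p ranked 285th and miR-126a-5p 169th of the 303 miRNAs tested. Limma called 0 of the 303 (0%), with 70 at an unadjusted p under 0.05. On recovered reads edgeR called 40 (13.2%) and DESeq2 63 (20.8%), with neither arm among them (adjusted p 0.859 and 0.508 by edgeR, 0.846 and 0.469 by DESeq2, for 3p and 5p, Benjamini-Hochberg). Of the tested miRNAs 1.65% had groups that did not overlap, and both miR-126a arms overlapped.

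Without control 1 the log2 difference of miR-126a-3p turned to 0.20 (SE 0.17, limma, 95% interval −0.18 to 0.58; Benjamini-Hochberg adjusted p = 0.533). That of miR-126a-5p was −0.07 (SE 0.17, 95% interval −0.44 to 0.30; limma adjusted p = 0.829 with Benjamini-Hochberg adjustment). The SE of the 3p arm fell with this 1 library removed, yet the interval still held 0. EWH 3 and EWH 4 held the highest sums of a list of neuron and glia miRNAs, 751 and 967 rpm. Without them the log2 differences were −0.16 for miR-126a-3p and −0.31 for miR-126a-5p (limma adjusted p 0.785 and 0.509, Benjamini-Hochberg). In bulk tissue fewer endothelial cells and less miR-126a per cell cannot be told apart, so these levels describe the aorta sample as a whole.

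**Figure D2:**
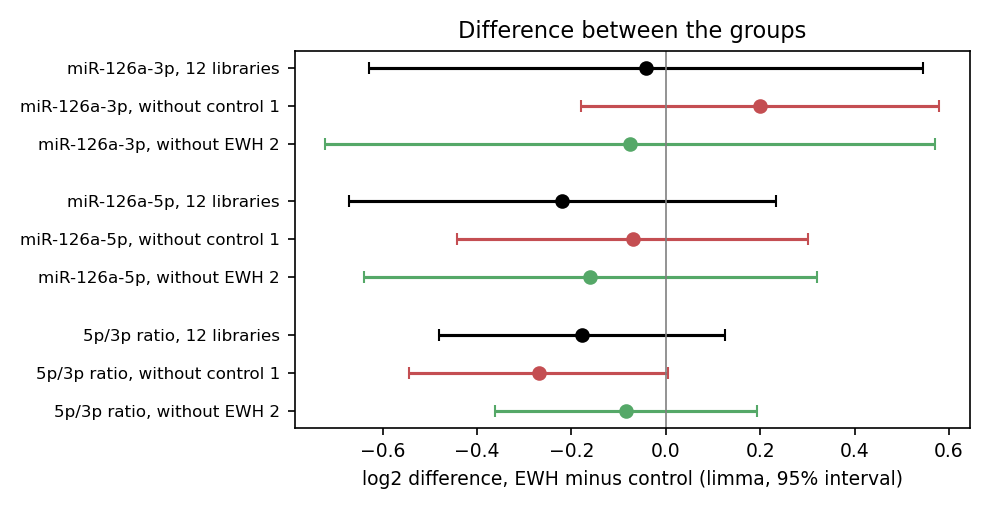
Log2 differences of EWH minus control (horizontal axis) for both arms and for their ratio, as points with 95% limma intervals, over 12 libraries and with control 1 or EWH 2 left out. All 9 intervals include 0, and the miR-126a-3p point moves from −0.04 to 0.20 without control 1.

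The 3p arm dominated the hairpin in each library. There were 104 ± 18.6 reads of miR-126a-3p per read of miR-126a-5p in control and 119 ± 24.9 in EWH (± SD, n = 6 per group). In control libraries 1 to 6 the ratio was 141, 93.5, 94.9, 91.3, 107 and 99.2. In EWH libraries 1 to 6 the ratio was 117, 163, 118, 124, 88.2 and 104. EWH 2 had the highest ratio and control 1 the next, and the other 10 libraries lay between 88.2 and 124. EWH 2 came by its ratio with a 5p level above that of only 1 library and a 3p level exceeded in only 2 libraries of the 12, while control 1 was highest in both arms. Among 67 hairpins with both arms tested, 24 had the higher level in the 3p arm, and miR-126a ranked 12th in the size of its arm bias.

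The balance of the arms did not differ between groups beyond its spread. The log2 ratio of 5p to 3p stood at −6.66 ± 0.24 for control and −6.84 ± 0.29 for EWH (± SD, n = 6 per group), a difference of −0.18 (SE 0.14, limma, 95% interval −0.48 to 0.13; adjusted p = 0.615, Benjamini-Hochberg over 67 hairpins). None of the 67 ratios was called (0%), with 13 at an unadjusted limma p under 0.05. Leaving out control 1 gave −0.27 (95% interval −0.54 to 0.0056; limma adjusted p = 0.243, Benjamini-Hochberg) and leaving out EWH 2 gave −0.08 (adjusted p = 0.841). The SD of the ratio within groups, 0.27 on the log2 scale, ranked 31st of 67 hairpins, whose median was 0.25.

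Across libraries the arms varied together. Pearson's r of their log2 levels was 0.84 (permutation p = 0.0021) and Spearman's rho 0.65 (permutation p = 0.027) over 12 libraries. The arms were the only pair of miRNAs tested in this way, in 3 sets of libraries (all, control and EWH). Within the 6 controls r was 0.98 (exact permutation p = 0.0042) and rho 0.94 (exact permutation p = 0.017). Within the 6 EWH libraries r was 0.39 (exact permutation p = 0.424) and rho 0.31 (exact permutation p = 0.564), and whether the groups differ in this was not tested. With Benjamini-Hochberg adjustment over the 3 sets, the permutation p of r was 0.00625 over all libraries, 0.00625 in control and 0.424 in EWH, and that of rho 0.0399, 0.0399 and 0.564. Without control 1 and control 2, which lay farthest from the median of the 3p arm, r was 0.49 (permutation p = 0.156) over 10 libraries. The relation thus did not pass without those libraries, whose removal also narrows the range of the 3p arm. Without control 1 alone r was 0.62 (permutation p = 0.043) and rho 0.55 (permutation p = 0.088), without control 2 alone r was 0.81 (permutation p = 0.0078), and without EWH 2 alone it was 0.93.

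**Figure D3:**
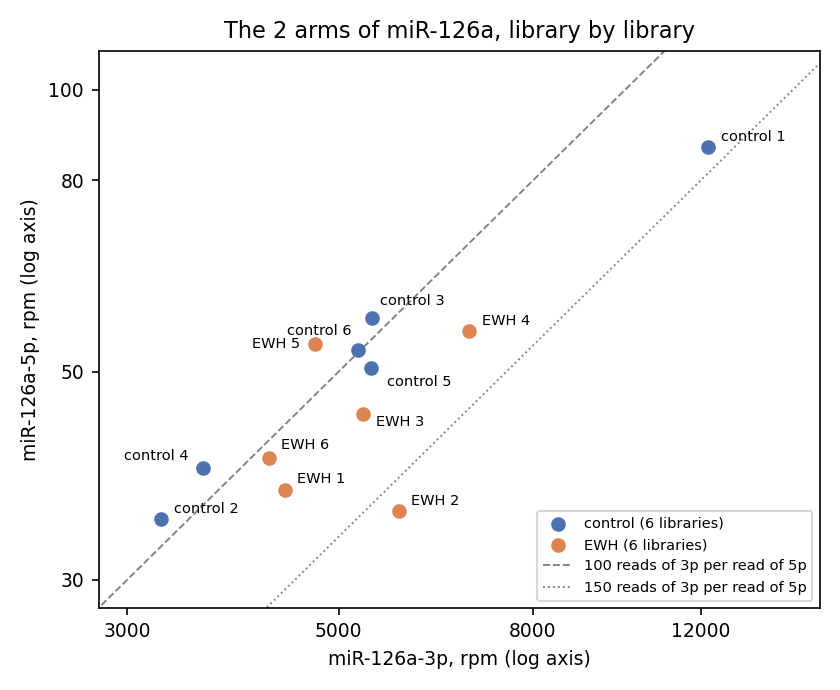
MiR-126a-5p against miR-126a-3p in rpm, both on log axes, 1 labelled point per library, with lines where 100 or 150 reads of 3p fall on each read of 5p. The controls follow the line of 100 apart from control 1 at 141, and EWH 2 lies beyond the line of 150, at 163.

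Set against smooth muscle, the main cell type of the aortic wall, miR-126a-3p did not differ between the groups beyond its spread. MiR-143-3p, the leading smooth muscle miRNA, read 395202 ± 31339 rpm in control and 383398 ± 36932 rpm in the EWH group (± SD, n = 6 per group), about 50.5% and 48.3% of listed reads. It varied less between libraries than miR-126a-3p (SD 7.93% against 55.7% of the mean in control, 9.63% against 19.0% in EWH). A ratio to it thus largely repeats the rpm comparison of miR-126a-3p and is not separate support for it. The miR-143-3p level per unit of miR-126a-3p was 28.3, 130, 69.1, 116, 72.2 and 80.1 in controls 1 to 6 and 96.8, 73.9, 70.5, 48.1, 78.0 and 89.0 in EWH 1 to 6. Control 1 had the smallest excess of the smooth muscle miRNA and control 2 the largest, with EWH in between. Without control 1 the lowest control was control 3 at 69.1, and EWH 4 at 48.1 lay below it. The log2 ratio of miR-126a-3p to miR-143-3p stood at −6.22 ± 0.78 for control and −6.22 ± 0.35 for EWH (± SD of 6 libraries; two-sided exact permutation p = 0.991 over 924 splits). Without control 1 the difference was 0.28 (exact permutation p = 0.251), and with miR-145-5p, the partner of miR-143 in its cluster, as the reference it was 0.12 (exact permutation p = 0.740).

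The spread of miR-126a-3p among controls was above that of most tested miRNAs. On the log2 scale its SD was 0.67 in control, 33rd highest of the 183 tested miRNAs that average at least 10 rpm, whose median SD was 0.31. In EWH its SD was 0.26, 96th highest, beside a median of 0.27. Without control 1 the control SD was 0.36, 61st highest, beside a median of 0.25. For miR-126a-5p the SD was 0.45 in control, 0.26 in EWH and 0.30 in control without control 1.

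Control 1 also stood apart outside miR-126a. It was the highest library in 77 of the 303 tested miRNAs (25.4%), and EWH 4 in 79 (26.1%). In miR-196a-5p, an miRNA of the Hox clusters that is expressed by position along the body axis, control 1 read 10.2 rpm where the other 11 libraries read 317 to 562 rpm. Its relative miR-196b-5p read 50.9 rpm in control 1 and 356 to 494 rpm elsewhere. The fat list (7 listed miRNAs of the miR-193a, miR-193b, miR-365 and miR-378a hairpins) summed to 1631 rpm in control 1 and at most 610 rpm elsewhere. It was led by miR-378a-3p, from a hairpin in the gene of the metabolic coactivator PGC-1β, at 1321 rpm in control 1 against 76.4 to 489 rpm. By group the fat list ranged from 121 to 1631 rpm in control and from 135 to 448 rpm in EWH, and no list member was at 0 throughout. The part of these differences in the miR-126a level of control 1 was not tested.

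Other marker lists placed control 1 differently. The smooth muscle list (miR-143 and miR-145, 4 of 4 listed members tested) summed to 347013 rpm in control 1, 11th of 12 libraries. The erythrocyte list (miR-144, miR-451 and miR-486) was lowest in control 1, at 80.4 rpm, against up to 385 rpm elsewhere. The platelet and leukocyte list (miR-142, miR-150 and miR-223) was highest in control 1, at 231 rpm beside at most 198 rpm in the others. That sum was carried by miR-150-5p, at 209 rpm in control 1, while the other 4 tested members lay below their control means there, such as miR-142-3p at 14.9 rpm against a mean of 19.8 rpm. In groups it ranged from 87.4 to 231 rpm in control and from 103 to 185 rpm in EWH. The epithelial list stood at 609 rpm in control 1, below control 6 at 729 rpm. It held miR-141, miR-200a, miR-200b, miR-200c, miR-203a, miR-205, miR-375 and miR-429, with 7 of 13 listed members tested. In control 1 miR-203a-3p, a skin miRNA, made up 572 rpm of the sum, and miR-200b-3p stood at 8.69 rpm beside up to 501 rpm elsewhere. Over the groups the epithelial sum ranged from 64.4 to 729 rpm in control and from 82.7 to 373 rpm in EWH. Of the 7 tested members of this list limma called 0, edgeR 2 and DESeq2 4, beside 0%, 13.2% and 20.8% of all tested. EdgeR called miR-200a-3p and miR-200b-3p, both lower in EWH. DESeq2 called these and miR-200c-3p, also lower, and miR-375-3p, which was higher in EWH. The striated muscle sum ranged from 429 to 1368 rpm in control and from 713 to 1439 rpm in EWH, with control 1 9th at 590 rpm. Of the 5 tested members of that list limma and edgeR called 0 and DESeq2 1, beside 20.8% of all tested by DESeq2. The called member was miR-1-3p, which was higher in EWH. Of the 5, 2 had a higher and 3 a lower mean log2 level in EWH, with a median log2 difference of −0.14. MiR-499-5p, next to miR-1-3p in abundance on the list, was lower in EWH (log2 difference −0.60), and no tool called it.

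The neuron and glia list (miR-9a, miR-124, miR-219a and miR-338) had a higher mean sum in EWH. It summed to 133 ± 46.5 rpm for control, from 81.4 to 191 rpm, and to 473 ± 326 rpm for EWH, from 118 to 967 rpm (± SD, n = 6 per group), and the ranges overlapped. Control 1 was 10th of 12 at 104 rpm. Of its 5 tested members 4 had a higher mean log2 level in EWH, with a median log2 difference of 1.47 beside −0.06 over all tested. By limma 0 were called (0% of all tested), with 4 at an unadjusted p under 0.05, beside 23.1% of all tested. EdgeR called 3 and DESeq2 4, beside 13.2% and 20.8% of all tested. The part of these lists in the miR-126a comparison was not tested.

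The miRNAs whose log2 profile over the 12 libraries was most like that of miR-126a-3p, among 182 others that were tested and averaged at least 10 rpm, were miR-139-5p (Pearson's r = 0.95), miR-30d-5p (0.92), miR-423-5p (0.91), miR-30b-3p (0.90) and miR-224-5p (0.90). The least alike were miR-196a-5p (r = −0.83), miR-152-3p (−0.80) and miR-196b-5p (−0.79). These are descriptions of 12 libraries that share the rpm scale, and much of the likeness came from control 1, which was the highest library in all 5 of the former and the lowest in all 3 of the latter. Over the 11 libraries without control 1, miR-139-5p kept first place (r = 0.90), miR-423-5p lay at rank 3 (0.85) and miR-30d-5p at rank 5 (0.76). MiR-30b-3p fell to 10th (0.72) and miR-224-5p to 14th (0.71). Of the least alike, miR-152-3p stayed at −0.69, rank 180 of 182, while miR-196a-5p stood at −0.49 and miR-196b-5p at −0.04. MiR-139-5p itself read 193 rpm in control 1 and 42.5 to 125.6 rpm in the other libraries, so, like miR-126a-3p, it was high in 1 control and intermixed elsewhere.

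For miR-126a-5p the most alike were miR-1843a-5p (r = 0.86), miR-423-5p (0.86), miR-195-5p (0.86), its own partner miR-126a-3p (0.84) and miR-351-5p (0.83). The least alike were miR-143-3p (−0.73), miR-196a-5p (−0.73) and miR-196b-5p (−0.71). In the list ordered by likeness to miR-126a-3p, miR-126a-5p came 15th of 182, and 29th without control 1 (r = 0.62). The arms of 1 hairpin were therefore not each other's closest match in these libraries. Without control 1, miR-143-3p remained the least like miR-126a-5p (r = −0.68).

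**Figure D4:**
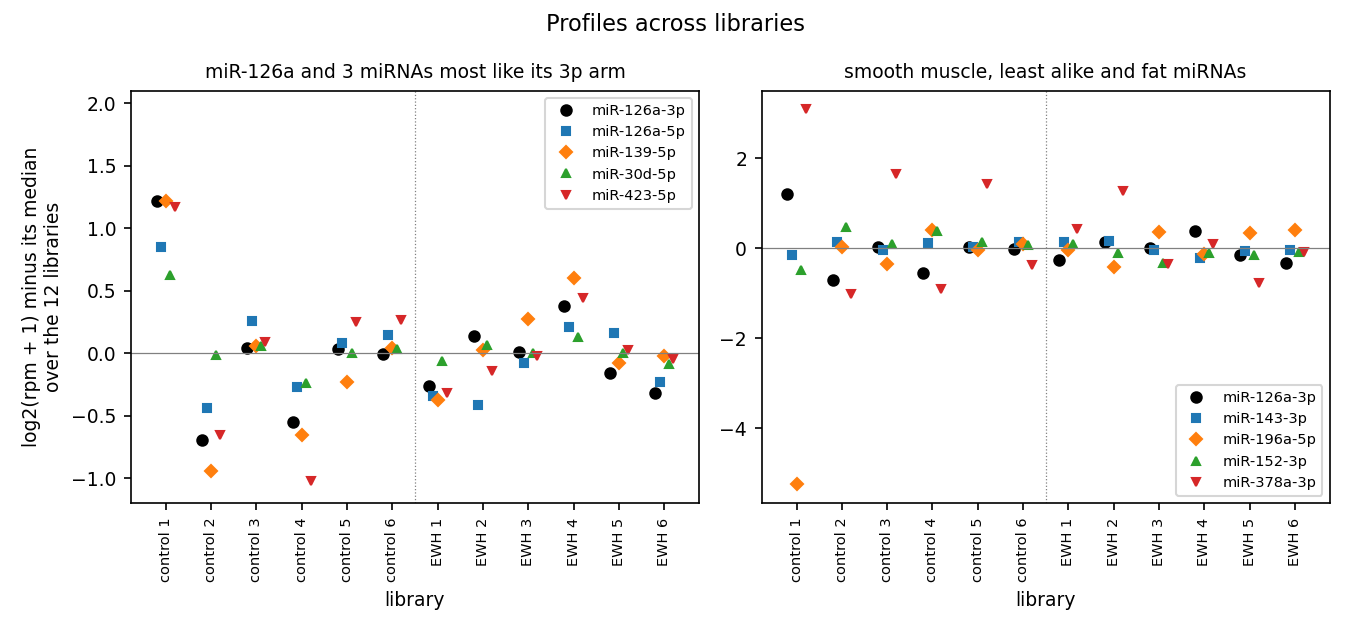
Log2(rpm + 1) of each miRNA minus its own median over 12 libraries (vertical axes, with different ranges), by library (horizontal axis), controls left and EWH right of the dotted line. Left, the 3 miRNAs most like miR-126a-3p are, like both its arms, highest in control 1; right, control 1 is lowest for miR-196a-5p (10.2 rpm) and highest for miR-378a-3p (1321 rpm).

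Other miRNAs known to act in endothelial cells were described as a list of 25 hairpins, with 33 of 53 listed mature miRNAs tested. By limma 0 of the 33 were called (0% of all tested), 8 had a higher and 25 a lower mean log2 level in EWH, and the median log2 difference was −0.15 beside −0.06 over all 303 tested miRNAs. In 6 of the 33 the unadjusted limma p was under 0.05, beside 70 of all 303 tested (23.1%). The 4 most abundant did not pass the test. MiR-10a-5p, which restrains inflammatory signalling in endothelium, stood at 20062 ± 4515 rpm in control against 22815 ± 3435 rpm for EWH (± SD, n = 6 per group). MiR-27b-3p averaged 11834 ± 2000 and 10947 ± 1040 rpm, miR-27a-3p averaged 7879 ± 1076 and 6623 ± 745 rpm, and miR-24-3p averaged 6270 ± 603 and 5714 ± 535 rpm. The list as a whole summed to 52363 to 58256 rpm in control and 52086 to 57765 rpm in EWH, and control 1 ranked 3rd of 12 at 57675 rpm. This sum is set by a few abundant members and does not bear on scarce ones such as miR-139-5p.

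By edgeR 3 members of that list were called, all lower in EWH, where 13.2% of all tested miRNAs were called. They were miR-27a-5p (44.7 ± 3.30 rpm in control, 25.8 ± 7.60 rpm in EWH), miR-20a-5p (29.4 ± 25.8 and 8.10 ± 2.07 rpm) and miR-17-5p (14.7 ± 13.9 and 4.05 ± 0.87 rpm, ± SD of 6 libraries each), each at edgeR adjusted p = 0.0308 with Benjamini-Hochberg adjustment. The first is a passenger strand and the other pair belong to the miR-17-92 cluster. DESeq2 called these and miR-92a-3p (9.12 ± 4.55 and 4.99 ± 1.74 rpm), where it called 20.8% of all tested. Without control 1 edgeR called none of the 303, with 85 at an unadjusted p under 0.05, and DESeq2 called 62. MiR-126a took no part in these calls by any of the tools.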

How the data were processed

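The authors deposited their values in RPM (reads per 1000000 of a library total), for 641 mature miRNAs and 12 libraries: the file names the unit TPM, but each value was a whole number of reads times a fixed step per library (100% of values within 0.01 read). The build, per the submitters' processing notes, was rn6. Aligner, counter, annotation and strand setting: not given in the sources used here. Groups and replicate numbers came from the titles.

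Tests covered the 303 miRNAs that reached 1 rpm in 6 or more libraries, as log2(rpm + 1), a scale that understates changes of low miRNAs, with limma 3.58.1 (trend, two-sided, Benjamini-Hochberg, threshold 0.05) in R 4.3.3. Arm ratios were fitted over 67 hairpins, and the ratio to miR-143-3p was tested by two-sided exact permutation. Alternatives were other filters, pseudocounts, scalings and limma settings, a replicate block, libraries left out, edgeR 4.0.16 and DESeq2 1.42.0 on recovered reads, and, chosen after seeing the data, edgeR, DESeq2 and profile likeness and abundance ranks without control 1 and library gaps on the log2 scale. The procedures were run on simulated counts without an outlying library, as a check of the code and not of the power to find small changes. Replicates were compared by chi-square: none of 30 within-group pairs agreed within sampling noise. The members and lists were chosen with earlier results of these data known. The rule for names took both arms, the 5 most and 3 least alike profiles of each, the neighbours in abundance, the 4 most abundant tested members of the endothelial list and those past a threshold, and reference miRNAs; miR-378a-3p and members of the marker lists were named after their values were seen. Duplexes were predicted with ViennaRNA 2.7.2, and figures drawn with Python 3.11.15 and matplotlib 3.10.9.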

Additional observations from a re-analysis of the deposited data

Results flagged for a closer look

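The gaps were examined in 8 sets of 6 libraries: the level of each arm, the arm ratio and the ratio to miR-143-3p, in each group. Of these sets, 2 held a library far from the rest, both times control 1. Chance flags about 1 set in 20, but the sets are not independent. Both flagged sets hold the same miR-126a-3p value of control 1, so they are not 2 separate observations. For miR-126a-3p the gap between control 1 (12218 rpm) and the next control took up 0.759 of the whole range of the controls, against a critical value of 0.625. For the log2 ratio of 5p to 3p, control 1 was the lowest control at −7.12, with a gap of 0.634 of the range. In miR-126a-5p the gap of control 1 was 0.572 of the range, under the critical value, as was that of the ratio to miR-143-3p (0.585). The levels were examined in rpm and the ratios in log2. On log2(rpm + 1), a scale added after seeing the data, the gap of control 1 in miR-126a-3p was 0.615 of the range and in miR-126a-5p 0.461, both under the critical value, so that on this scale control 1 stood apart in the arm ratio and in neither level.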

How the results depend on the processing

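No alternative brought either arm, the arm ratio or the ratio to miR-143-3p past the threshold (adjusted or exact p 0.243 at the least, for the arm ratio without control 1). The log2 difference of miR-126a-3p ran from −0.18 to 0.20 with 1 library left out, changed sign without control 1, EWH 1 or EWH 6, and was 0.0017 after quantile normalization; without control 1 it was 0.21 by edgeR and 0.23 by DESeq2. That of miR-126a-5p ran from −0.33 to −0.07 and the arm ratio from −0.27 to −0.08. The ratio to miR-143-3p, at 0.0036, ran from −0.16 to 0.28 and was −0.17 without EWH 3 and EWH 4. The number of miRNAs called over all tested, 0 by limma, was 0 to 24 with 1 library left out (24 without EWH 2, 1 without EWH 4), 1 without EWH 3 and EWH 4, 8 after quantile normalization, 40 by edgeR, 63 by DESeq2 and 62 by DESeq2 without control 1; the cause was not tested. With rpm rescaled to the listed reads, a smaller denominator, the means of the 3p arm were 7528 (control) and 6581 (EWH) and those of the 5p arm 68.8 and 56.3, the same order. The correlation of the arms ran from 0.62 (without control 1) to 0.93 (without EWH 2). With the replicate number as a block, the log2 differences were the same, −0.04 and −0.22 for the arms and −0.18 for their ratio. Again 0 miRNAs were called. Deviations of same-numbered libraries correlated at −0.50 to 0.31, and no control library correlated best with the EWH library of its own number. The labels do not say whether the numbers pair samples, and correlations this weak cannot decide it.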
